A study of Mus musculus with 6 samples.

Results

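Glycolysis and hypoxia response genes were examined in D2A1 spheroids as a set of 34 genes chosen by symbol, of the 54146 genes in the deposited table. They comprised 16 glycolytic enzymes, 5 transporters and regulators of glycolytic flux, the oxygen-regulated subunit Hif1a with 2 of its prolyl hydroxylases, and 10 other targets of the hypoxia-inducible factor (HIF). All 34 were found in the table. The rule that gives them uses gene symbols only, but the members were chosen with earlier results of these data known. D2A1 is a mouse mammary tumor cell line, here with the genotype given as control in all libraries, cultured in 3D Matrigel in DMEM with 10% FBS. Cells received 50 nM recombinant SLURP1 (rSLURP1) or 50 nM recombinant GST (rGST, the control protein), and 3 libraries of each were sequenced. The comparison asked which genes differ between rSLURP1 and control treatment in vitro. All 6 libraries come from 1 cell line in culture without host cells, and the labels do not say whether replicates were separate cultures, so p-values measure only the spread between these libraries, which may be technical.

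Glycolysis splits glucose into pyruvate, which cells either convert to lactate or pass to mitochondria as acetyl-CoA. When oxygen is scarce, the prolyl hydroxylases (EGLN enzymes) stop marking HIF-1α for destruction by the VHL ubiquitin ligase. HIF-1α then pairs with ARNT on short DNA motifs and raises transcription of most glycolytic enzymes, glucose transporters and genes for angiogenesis, mitophagy and pH control. HIF activity is set mainly through the stability of the HIF-1α protein, which RNAseq does not measure.

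The core of the HIF response element is ACGTG or GCGTG, and it was searched on both strands in windows from 250 bases before to 50 bases after each RefSeq transcription start (GRCm38.p6). The E-box CACGTG, which other factors also bind, holds ACGTG on both strands and was searched as well. Windows were matched for 31 of the 34 genes, 50 windows in all, while Slc2a3, Ndrg1 and Bnip3l were not matched. ACGTG was present in 50.0% of the members' windows, 26.0% of the windows of tested genes and 19.6% of all 32851 windows. ACGTG or GCGTG was present in 80.0%, 63.7% and 43.8%, respectively. CACGTG was counted by gene, and 6 of the 31 matched members had it in at least 1 window. The same held for 1009 of 8367 tested genes with windows and 2187 of all 27025 genes with windows. By gene, 22 of 31 had ACGTG in at least 1 window (71.0%, against 30.2% of tested genes). The 31 members had 50 windows and the 8367 tested genes 10700, so members had more windows per gene. More windows give more room for a match, which affects the counts by gene. The genes were chosen as members of the glycolysis and HIF pathways, so these shares are a description of that choice. The 250 bases before 1 start follow, written 5′ to 3′, for 6 genes that were called in opposite directions or not called, with ACGTG and GCGTG on either strand in capitals.
Pfkfb3, chr2:11502091-11502340, minus strand, lower with rSLURP1: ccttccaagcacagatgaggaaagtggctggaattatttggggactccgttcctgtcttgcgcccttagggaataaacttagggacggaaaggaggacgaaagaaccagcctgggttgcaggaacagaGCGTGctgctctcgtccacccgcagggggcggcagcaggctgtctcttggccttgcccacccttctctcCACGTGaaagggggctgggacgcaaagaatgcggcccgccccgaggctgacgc
Ankrd37, chr8:45999851-46000100, minus strand, lower: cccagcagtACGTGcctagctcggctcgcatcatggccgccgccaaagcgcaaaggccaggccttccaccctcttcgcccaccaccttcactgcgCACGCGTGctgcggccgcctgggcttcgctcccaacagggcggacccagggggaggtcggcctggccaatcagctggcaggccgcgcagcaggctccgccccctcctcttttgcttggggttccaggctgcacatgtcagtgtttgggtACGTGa
Vegfa, chr17:46032378-46032627, minus strand, lower: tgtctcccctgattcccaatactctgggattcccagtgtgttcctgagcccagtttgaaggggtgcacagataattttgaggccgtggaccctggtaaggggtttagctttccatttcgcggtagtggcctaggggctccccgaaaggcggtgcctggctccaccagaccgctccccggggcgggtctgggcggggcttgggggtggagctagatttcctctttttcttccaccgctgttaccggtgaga
Ldha, chr7:46845554-46845803, plus strand, lower as deposited, higher with median-ratio scaling: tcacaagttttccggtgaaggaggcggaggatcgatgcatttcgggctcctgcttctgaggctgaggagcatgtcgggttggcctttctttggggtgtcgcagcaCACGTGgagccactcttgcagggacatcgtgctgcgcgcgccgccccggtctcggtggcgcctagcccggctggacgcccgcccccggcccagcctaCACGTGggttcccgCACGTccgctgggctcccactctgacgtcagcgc
Bnip3, chr7:138909507-138909756, minus strand, not called as deposited: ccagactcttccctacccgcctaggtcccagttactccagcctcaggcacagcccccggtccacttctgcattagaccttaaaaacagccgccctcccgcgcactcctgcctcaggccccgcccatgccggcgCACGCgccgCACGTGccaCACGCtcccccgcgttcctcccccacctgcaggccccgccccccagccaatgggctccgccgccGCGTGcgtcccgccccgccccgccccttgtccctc
Hif1a, chr12:73907617-73907866, plus strand, higher: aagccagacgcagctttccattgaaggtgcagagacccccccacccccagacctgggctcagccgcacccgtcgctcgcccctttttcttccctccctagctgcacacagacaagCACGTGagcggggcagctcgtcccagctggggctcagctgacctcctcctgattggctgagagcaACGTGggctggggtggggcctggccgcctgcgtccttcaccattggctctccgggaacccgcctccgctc

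The 6 sequences held 3 matches for Pfkfb3, 4 for Ankrd37, 0 for Vegfa, 5 for Ldha, 5 for Bnip3 and 3 for Hif1a, counting a palindromic CACGTG on each strand. Genes with matches were found among those that were lower, higher and not called, and a match describes the letters of the window only. Pfkfb3, Vegfa and Ldha each have a second start, whose 250 bases are not printed and held 1, 2 and 1 matches, so for Pfkfb3 and Ldha the printed stretch is the one with more matches. For Pfkfb3 and Vegfa the start was chosen for the fewer bases in annotated exons, and for Ldha the more upstream start was taken.

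Expression was deposited as TPM, a unit in which reads are divided by transcript length and every library is brought to one common total, so levels of different genes can be compared per length. Read depth is unknown in this unit and no counting error can be given. For testing, a gene had to reach 1 TPM in 3 or more libraries, which left 12301 genes, and these were fitted with limma on log2(TPM + 1), which understates the change of low genes, and called at a Benjamini-Hochberg adjusted p of 0.05 or less. As deposited, the log2 fold change of all tested genes had its median at -0.33, and this became -0.00 when libraries were divided by the median ratio of their genes to the mean library (median-ratio scaling), so values are given on both scales where the call or direction differs. Between 11906 and 12449 genes reached a TPM of 1. The label of mammary tumor cells was checked against markers: Krt18 had 191 to 199 TPM, while Epcam, Krt5 and Krt14 were at 0 and Cdh1 at no more than 0.07 TPM, so most epithelial markers were absent. Krt8 was low, at 1.40 to 1.66 TPM with rGST and 0.51 to 0.81 TPM with rSLURP1, and passed the filter only through the rGST libraries. Summed mesenchymal markers were 1539 to 1701 TPM with rGST and 783 to 844 TPM with rSLURP1. Most of this was Vim, with 1184 to 1340 TPM with rGST and 640 to 699 TPM with rSLURP1. Cdh2, Col1a2 and Thy1, at no more than 0.77 TPM, were not tested. The other 5 of the 8 were tested. All 5 were lower as deposited, though Col1a1 passed the filter only through the rGST libraries, and 4 were lower with median-ratio scaling, where Zeb1 was not called (-0.23, adjusted p = 0.0526 in limma). Of the leukocyte markers, Cd68 had 3.57 to 4.07 TPM with rGST and 7.75 to 10.6 TPM with rSLURP1, Adgre1, Cd3e and Itgam were at 0, and Ptprc was at no more than 0.01. The 4 endothelial markers summed to at most 0.31 TPM. Whether the change in mesenchymal genes had a part in the results on the 34 genes was not tested.

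Of the 34 genes, 30 passed the filter, and 22 of these were lower and 3 higher with rSLURP1 in limma, while 5 were not called. Across all tested genes 58.5% were lower and 8.66% were higher, and among the 30 genes 73.3% were lower and 10.0% higher. At 2-fold or more, 3 genes were lower (Pfkfb3, Ankrd37 and Vegfa) and 0 were higher, beside 7.06% and 1.15% of all tested genes. With median-ratio scaling 13 were lower and 7 higher, beside 25.1% and 26.0% of all tested genes. In 22 genes every rSLURP1 library was below every rGST library and in 3 every one was above, beside 61.7% and 9.75% of all tested genes. The median log2 fold change was -0.44 over the 30 genes, -0.12 relative to the median of all tested genes. In bulk RNA, fewer cells expressing a gene and less RNA per cell cannot be told apart. Aldoc, Slc2a3, Car9 and Adm did not pass the filter, and Slc16a3 passed it only through the rSLURP1 libraries, where it was high.

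**Figure D1:**
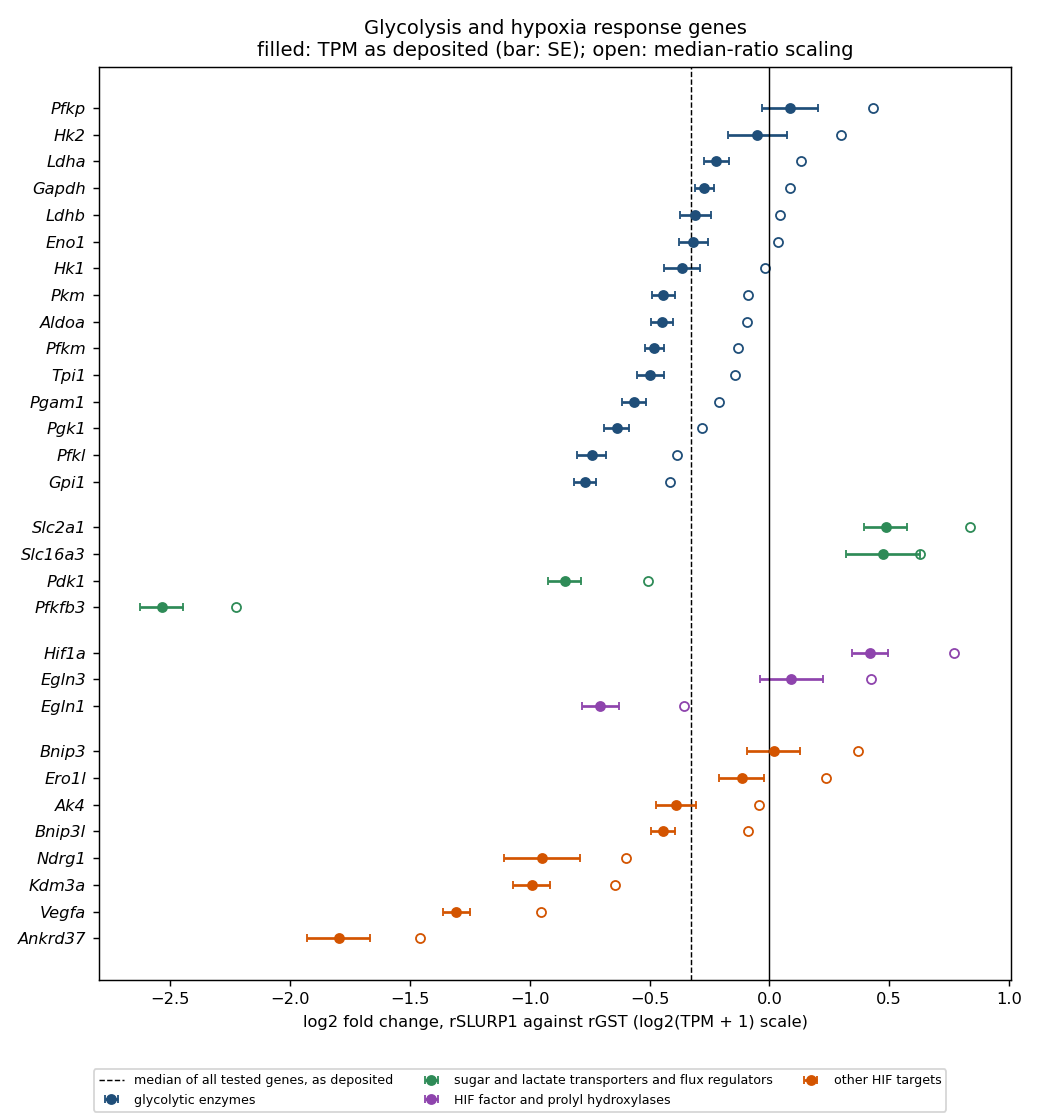
Log2 fold change of the 30 tested genes, rSLURP1 against rGST, on the log2(TPM + 1) scale, grouped by role; filled points with SE bars are TPM as deposited, open points are median-ratio scaling, and the dashed line is the median of all tested genes at -0.33. Pfkfb3 at -2.54 and Ankrd37 at -1.80 lie farthest to the left, and Slc2a1 at 0.48 and Hif1a at 0.42 lie to the right of 0.

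As deposited, glycolytic enzymes were lower with rSLURP1 by a modest amount, with the deepest decreases in Gpi1, Pfkl, Pgk1 and Pgam1. The isozymes Hk2 and Pfkp were not called on this scale. Of 15 tested enzymes, 13 were lower (86.7%) and 0 higher as deposited, beside 58.5% and 8.66% of all tested genes. With median-ratio scaling 6 were lower and 2 higher, beside 25.1% and 26.0% of all tested genes. Quantile normalization, which makes the distributions of the libraries equal, gave 11 lower and 1 higher, beside 2905 and 3111 of all 12301 tested genes. The median log2 fold change of the enzymes was -0.44, or -0.12 relative to all tested genes. It was -0.088 with median-ratio scaling and -0.49 with quantile normalization. No enzyme reached a 2-fold change. The enzymes together held 16032, 16843 and 15749 TPM in the rGST libraries and 12338, 12707 and 11779 TPM in the rSLURP1 libraries, or 1.62% and 1.23% of the total on average. The treatments did not overlap as deposited (two-sided exact permutation test, p = 0.1, the smallest that 3 against 3 libraries can give). With median-ratio scaling the sums were 14493 ± 495 and 14035 ± 372 TPM (SD, n = 3) and overlapped (exact permutation test, p = 0.4).

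Gpi1, glucose phosphate isomerase (ENSMUSG00000036427.5, chromosome 7, 34201330 to 34230336, minus strand, GRCm38), had 515, 540.5 and 480.4 TPM in the rGST libraries and 301, 300.2 and 297 TPM in the rSLURP1 libraries. Every rSLURP1 library was below every rGST library, with little spread among the rSLURP1 libraries. The decrease was 1.71-fold in mean TPM (log2 fold change -0.77, SE 0.047, adjusted p = 1.01e-05 in limma) and stayed called with median-ratio scaling (-0.42, adjusted p = 3.12e-04). Pfkl, the liver-type subunit of phosphofructokinase, which commits sugar to glycolysis (ENSMUSG00000020277.10, chromosome 10, 77986947 to 78010083, minus strand), had 214, 227 and 195 TPM in the rGST libraries and 123, 132 and 125 TPM in the rSLURP1 libraries. The groups again did not overlap (log2 fold change -0.74, SE 0.06, adjusted p = 3.77e-05 in limma), and the call held with median-ratio scaling (-0.39, adjusted p = 9.78e-04). Pgk1, phosphoglycerate kinase, the first step that makes ATP (ENSMUSG00000062070.12, chromosome X, 106187100 to 106203699, plus strand), had 1788, 1931 and 1765 TPM in the rGST libraries and 1182, 1235 and 1108 TPM in the rSLURP1 libraries. It was lower on both scales, with log2 fold changes of -0.64 (adjusted p = 4.11e-05 in limma) and -0.28 (adjusted p = 0.00208). Pgam1, phosphoglycerate mutase, fell from 813 ± 46.5 to 549 ± 23.8 TPM (SD, n = 3 each), and was lower on both scales (-0.56 and -0.21, adjusted p = 6.65e-05 and 0.00660 in limma).

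Pfkm, the muscle-type phosphofructokinase subunit, had 70.1, 70.2 and 69.8 TPM in the rGST libraries and 49.4, 50.6 and 49.8 TPM in the rSLURP1 libraries, and the libraries of each treatment lay close together. Tpi1, triosephosphate isomerase, had 1433, 1506 and 1397 TPM in the rGST libraries and 1024, 1094 and 957 TPM in the rSLURP1 libraries. Both were lower on both scales in limma, Pfkm by log2 fold changes of -0.48 and -0.13 (adjusted p = 3.93e-05 and 0.0181) and Tpi1 by -0.50 and -0.14 (adjusted p = 1.65e-04 and 0.0392). Pfkm was not called when values were corrected for the length and GC content of transcripts (-0.098, adjusted p = 0.0582 in limma). Aldoa, the main aldolase here, fell from 1649.5 ± 75.4 to 1209 ± 47.1 TPM (SD, n = 3 each), and Pkm, pyruvate kinase, from 2247 ± 103 to 1653 ± 68.4 TPM. These 2 genes were called as deposited (log2 fold changes -0.45 and -0.44, adjusted p = 1.17e-04 and 1.34e-04 in limma) but not with median-ratio scaling (-0.09 and -0.09, adjusted p = 0.0936 and 0.112). Aldoa was called lower after the length and GC correction (-0.20, adjusted p = 0.00951 in limma). Hk1, the hexokinase of most tissues, was lower as deposited (-0.36, adjusted p = 0.00382 in limma) with 53.4, 59.4 and 51.3 TPM in the rGST libraries and 39.1, 45.5 and 42.2 TPM in the rSLURP1 libraries, and was not called with median-ratio scaling (-0.02, adjusted p = 0.850).

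Gapdh, glyceraldehyde phosphate dehydrogenase and a common reference gene, had 4759, 4745 and 4736 TPM in the rGST libraries and 4094, 3936 and 3778 TPM in the rSLURP1 libraries. It was the most abundant of the enzymes per length. Its log2 fold change was -0.27 as deposited (adjusted p = 6.18e-04 in limma), against 0.08 under median-ratio scaling (adjusted p = 0.135), so its direction depended on the scale. With quantile normalization Gapdh was lower (-0.49, adjusted p = 3.01e-04 in limma), and with the length and GC correction it was higher (0.13, adjusted p = 0.0411). Eno1, enolase, likewise moved from -0.32 (adjusted p = 0.00274 in limma) to 0.04 (adjusted p = 0.577), with 949 ± 46.2 TPM under rGST and 762 ± 58.4 TPM under rSLURP1 (SD, n = 3 each). Ldha, which makes lactate from pyruvate (ENSMUSG00000063229.15, chromosome 7, 46841475 to 46855627, plus strand), had 1465, 1597 and 1436 TPM in the rGST libraries and 1254, 1354 and 1249 TPM in the rSLURP1 libraries. Ldha was lower as deposited (-0.22, adjusted p = 0.00718 in limma) and higher with median-ratio scaling (0.13, adjusted p = 0.0441), so as deposited it fell by less than the median of all tested genes. With quantile normalization Ldha and Eno1 were lower (-0.49 and -0.39, adjusted p = 1.49e-04 and 9.58e-04 in limma). Ldhb, the subunit favouring the reverse reaction, fell from 87.9 ± 7.49 to 70.7 ± 0.915 TPM as deposited (SD, n = 3 each; -0.31, adjusted p = 0.00375 in limma) and was not called with median-ratio scaling (0.04, adjusted p = 0.600).

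Hk2, the inducible hexokinase found in many tumors, had 51.1, 68.4 and 47.3 TPM in the rGST libraries and 53.0, 53.9 and 52.0 TPM in the rSLURP1 libraries. All 3 rSLURP1 values lay within the range of the rGST libraries, and the gene was not called (log2 fold change -0.05, adjusted p = 0.733 in limma), but with the length and GC correction it was called higher (0.43, adjusted p = 0.0229). Pfkp, the platelet-type phosphofructokinase subunit, had 33.7, 42.3 and 32.6 TPM in the rGST libraries and 40.5, 41.3 and 33.5 TPM in the rSLURP1 libraries. The treatments overlapped as deposited (0.09, adjusted p = 0.534 in limma), but Pfkp was higher with median-ratio scaling (0.43, adjusted p = 0.0157). Aldoc, the brain-type aldolase, was at 1.91, 0.50 and 0.44 TPM with rGST and 0.23, 0.08 and 0.24 TPM with rSLURP1 and was not tested.

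**Figure D2:**
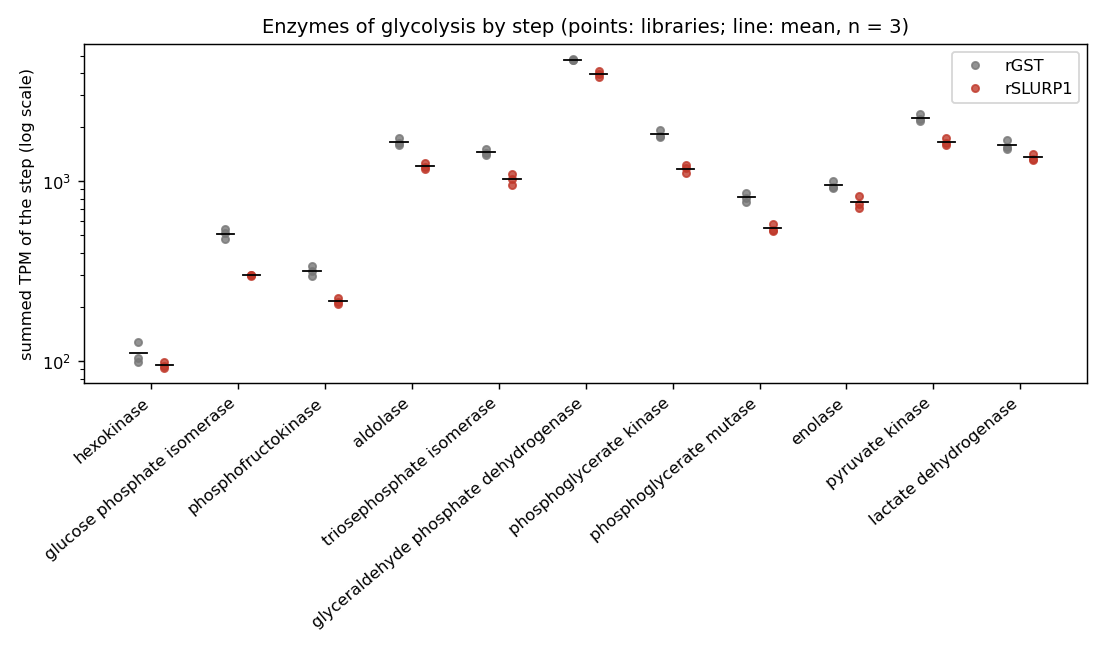
Summed TPM (log axis) of the members that catalyse each step of glycolysis from hexokinase to lactate dehydrogenase; points are libraries and lines are means (n = 3 each). Every step has a lower mean with rSLURP1 on the deposited scale, from 1.71-fold at glucose phosphate isomerase to 1.16-fold at hexokinase, where the libraries overlap.

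Summed by step as deposited, expression was 1.71-fold lower at glucose phosphate isomerase, 1.56-fold at phosphoglycerate kinase and 1.48-fold at both phosphofructokinase and phosphoglycerate mutase. The smallest ratios were 1.16 for hexokinase and 1.17 for lactate dehydrogenase, the first and last steps. Lactate dehydrogenase had 1555, 1691 and 1516 TPM with rGST and 1324, 1426 and 1319 TPM with rSLURP1. Hexokinase had 104.5, 128 and 98.6 TPM with rGST and 92.1, 99.4 and 94.2 TPM with rSLURP1. Only at this step did the libraries of the treatments overlap as deposited. Step sums were not computed with median-ratio scaling. On that scale the log2 fold changes of Gapdh, Eno1 and Ldha were positive (0.08, 0.04 and 0.13). Those of Gpi1, Pgk1 and Pgam1 stayed negative (-0.42, -0.28 and -0.21). The order of the steps is therefore given for the deposited scale only.

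A share of 1 isozyme within its step is the same on either scale. Hk2 made up 50.1% ± 2.96 of Hk1 and Hk2 in rGST libraries and 55.7% ± 1.70 in rSLURP1 libraries (SD, n = 3 each). Pfkp made up 11.3% ± 0.984 of the phosphofructokinase subunits with rGST and 17.9% ± 1.55 with rSLURP1, while Pfkl made up 66.6% ± 0.90 and 58.9% ± 1.09. In each of these 3 shares the treatments did not overlap. Among the other targets, Bnip3 made up 32.4% ± 1.79 of Bnip3 and Bnip3l with rGST and 39.8% ± 2.65 with rSLURP1, and Egln3 made up 14.5% ± 1.10 and 22.9% ± 0.806 of Egln1 and Egln3, again without overlap. Each of these 5 shares had p = 0.1 in a two-sided exact permutation test, the smallest possible, and 0.129 after Benjamini-Hochberg adjustment over the 9 shares and sums tested, so none passed 0.05. Aldoc also had p = 0.1 (0.129 adjusted) in the exact permutation test, at 0.058% and 0.015% of aldolase. Ldhb was 5.54% ± 0.259 and 5.21% ± 0.161 of lactate dehydrogenase (exact permutation p = 0.3, 0.338 adjusted). Slc2a3 was at most 0.201% of Slc2a1 and Slc2a3 in any library (exact permutation p = 0.8).

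**Figure D3:**
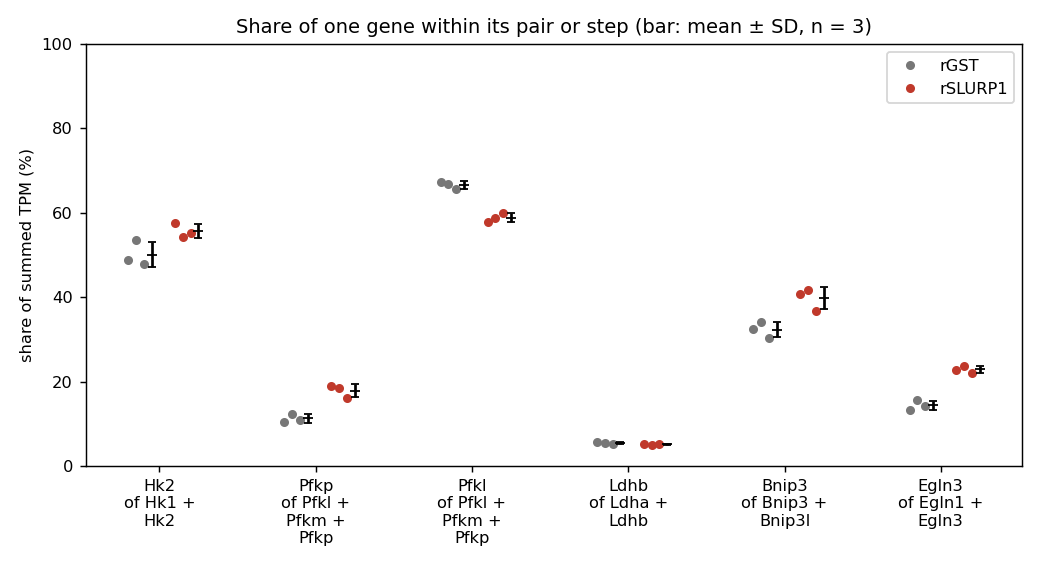
Share in percent of 1 gene within its pair or step, in each library (points) with mean and SD (bars, n = 3), for rGST (grey) and rSLURP1 (red). Pfkp averages 11.3% with rGST and 17.9% with rSLURP1 and Egln3 14.5% and 22.9%, while Ldhb overlaps between treatments at means of 5.54% and 5.21%.

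Transporters and flux regulators went in opposite directions: Pfkfb3 and Pdk1 were lower, and Slc2a1 was higher with rSLURP1. Pfkfb3 makes fructose 2,6-bisphosphate, the strongest activator of phosphofructokinase (ENSMUSG00000026773.19, chromosome 2, 11471433 to 11554077, minus strand). Its expression was 26.4, 28.2 and 24.7 TPM in the rGST libraries and 3.34, 3.95 and 3.92 TPM in the rSLURP1 libraries. The lowest rGST library was above the highest rSLURP1 library by a wide margin, and mean TPM was 7.08-fold lower (log2 fold change -2.54, SE 0.09, adjusted p = 9.18e-07 in limma). Of all 12301 tested genes it had rank 79 from the lowest log2 fold change, and it was lower with median-ratio scaling too (-2.23, adjusted p = 1.90e-06). Pdk1, the kinase that shuts off pyruvate dehydrogenase (ENSMUSG00000006494.11, chromosome 2, 71873224 to 71903858, plus strand), had 75.9, 83.8 and 70.5 TPM in the rGST libraries and 41.6, 40.3 and 43.8 TPM in the rSLURP1 libraries. The groups did not overlap, and the decrease was 1.83-fold (log2 fold change -0.85, SE 0.07, adjusted p = 3.84e-05 in limma; -0.51 with median-ratio scaling, adjusted p = 0.00105).

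Slc2a1 encodes GLUT1, the main glucose transporter of proliferating cells (ENSMUSG00000028645.11, chromosome 4, 119108711 to 119137983, plus strand). It had 84.6, 102 and 86.4 TPM in the rGST libraries and 124, 141 and 118 TPM in the rSLURP1 libraries. All rSLURP1 libraries were above all rGST libraries, by 1.40-fold in mean TPM (log2 fold change 0.48, SE 0.091, adjusted p = 0.00222 in limma; 0.84 with median-ratio scaling, adjusted p = 1.56e-04). Slc16a3, the lactate exporter MCT4, was near the filter with 0.63, 0.41 and 0.47 TPM in the rGST libraries and 1.05, 1.17 and 1.03 TPM in the rSLURP1 libraries. It was called as higher (log2 fold change 0.47, SE 0.15, adjusted p = 0.0272 in limma), but since it passed the filter only where it was high this is no support for a direction, and the adjusted p was 0.0569 to 0.0725 without each of rGST library 2, rGST library 3 and any 1 rSLURP1 library. Slc2a3, the glucose transporter GLUT3, had at most 0.25 TPM in any library and was not tested.

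Among the HIF subunit and its hydroxylases, Hif1a was higher and Egln1 lower with rSLURP1. Hif1a (ENSMUSG00000021109.13, chromosome 12, 73901375 to 73947530, plus strand) had 63.3, 61.1 and 52.4 TPM in the rGST libraries and 77.0, 82.2 and 77.5 TPM in the rSLURP1 libraries. Its rSLURP1 libraries were all above its rGST libraries, 1.34-fold in mean TPM (log2 fold change 0.42, SE 0.074, adjusted p = 0.00171 in limma; 0.77 with median-ratio scaling, adjusted p = 1.07e-04). Egln1 (PHD2), the main hydroxylase that marks HIF-1α (ENSMUSG00000031987.6, chromosome 8, 124908587 to 124949324, minus strand), had 75.2, 88.0 and 73.0 TPM in the rGST libraries and 48.2, 50.2 and 45.1 TPM in the rSLURP1 libraries. Egln1 was lower without overlap (log2 fold change -0.70, SE 0.079, adjusted p = 1.67e-04 in limma; -0.36 with median-ratio scaling, adjusted p = 0.00577). Egln3 (PHD3), itself a HIF target, had 11.7, 16.3 and 12.3 TPM in the rGST libraries and 14.3, 15.6 and 12.8 TPM in the rSLURP1 libraries and was not called as deposited (0.09, adjusted p = 0.563 in limma) but was higher with median-ratio scaling (0.42, adjusted p = 0.0276). Of the 3 genes, 1 was higher and 1 lower, with a median log2 fold change of 0.09.

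**Figure D4:**
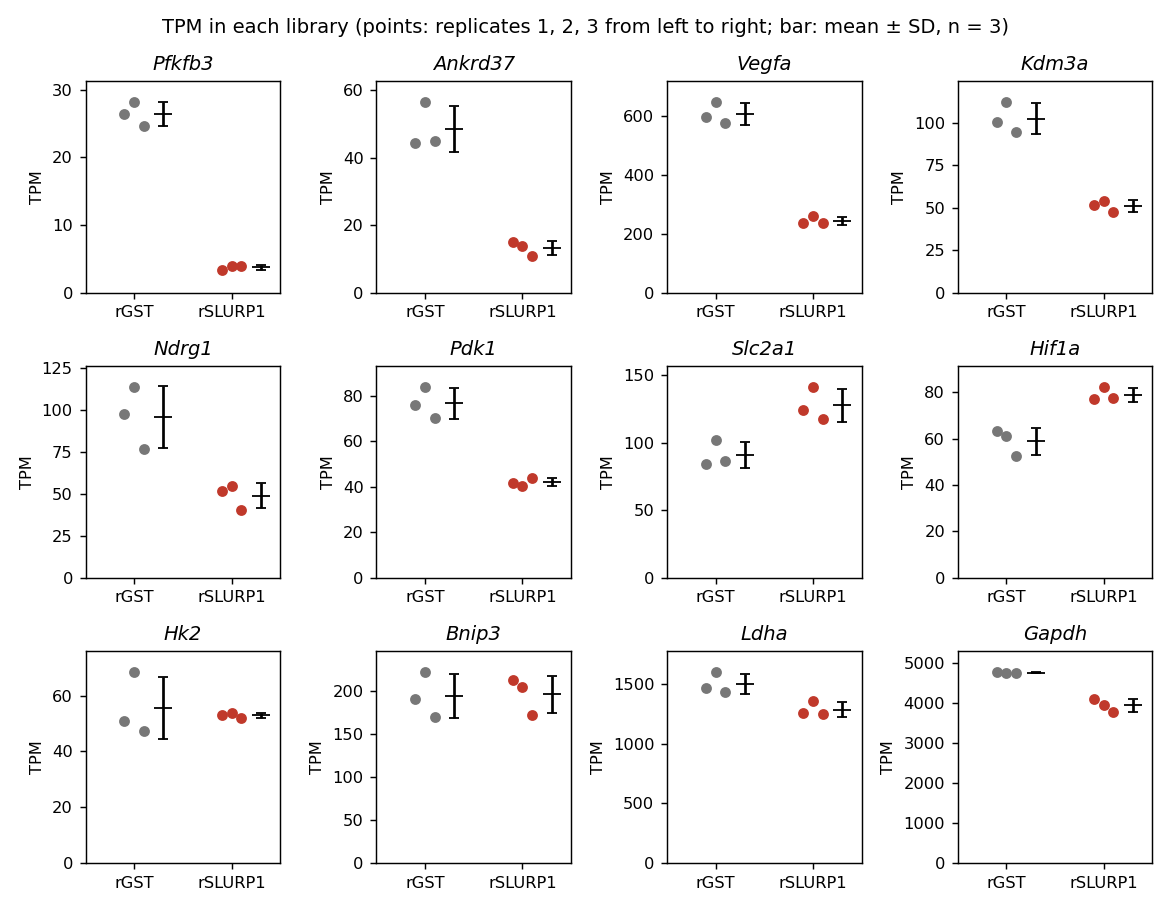
TPM of 12 genes in each rGST (grey) and rSLURP1 (red) library, with mean and SD (n = 3), each axis from 0. Pfkfb3, Ankrd37, Vegfa, Kdm3a, Ndrg1, Pdk1, Ldha and Gapdh lie lower with rSLURP1, Slc2a1 and Hif1a lie higher, and Hk2 and Bnip3 overlap.

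Other HIF targets included the deepest decreases after Pfkfb3, beside genes that were not called. Of 10 genes 8 were tested, and 6 were lower (75.0%) and 0 higher, beside 58.5% and 8.66% of all tested genes. The median log2 fold change of the 8 was -0.70, against -0.33 for all tested genes. With median-ratio scaling 4 of the 8 were lower and 1 higher, beside 25.1% and 26.0% of all tested genes, and the median of the 8 was -0.35. The 8 leave out Slc2a1, Slc16a3, Pdk1 and Egln3, which are described above. Over all 15 tested members other than the enzymes, 9 were lower (60.0%) and 3 higher (20.0%) as deposited. That share of lower genes lay near the 58.5% of all tested genes. Among the 3 higher genes Slc16a3 passed the filter only through the rSLURP1 libraries. With median-ratio scaling 7 of the 15 were lower and 5 higher. Ankrd37, a small ankyrin-repeat protein used as a hypoxia marker (ENSMUSG00000050914.16, chromosome 8, 45996902 to 46005707, minus strand), had 44.3, 56.4 and 44.9 TPM in the rGST libraries and 14.9, 13.9 and 10.97 TPM in the rSLURP1 libraries. It was 3.66-fold lower without overlap (log2 fold change -1.80, SE 0.13, adjusted p = 2.31e-05 in limma), rank 225 from the lowest of all tested genes. Vegfa, the angiogenic growth factor (ENSMUSG00000023951.17, chromosome 17, 46016993 to 46032369, minus strand), had 595, 646 and 576 TPM in the rGST libraries and 237, 259 and 236 TPM in the rSLURP1 libraries. It was 2.48-fold lower without overlap (log2 fold change -1.31, SE 0.057, adjusted p = 2.36e-06 in limma), rank 466. Both were also lower with median-ratio scaling (-1.46 and -0.95, adjusted p = 1.00e-04 and 6.13e-06).

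Kdm3a, a histone H3 lysine 9 demethylase (ENSMUSG00000053470.13, chromosome 6, 71588972 to 71632990, minus strand), had 101, 112 and 94.8 TPM in the rGST libraries and 51.8, 54.0 and 47.3 TPM in the rSLURP1 libraries, and the treatments did not overlap. Its mean TPM was 2.01-fold lower, just under 2-fold on the log2(TPM + 1) scale (log2 fold change -0.99, SE 0.076, adjusted p = 2.79e-05 in limma). Ndrg1, a stress-response gene and metastasis suppressor in some tumors (ENSMUSG00000005125.13, chromosome 15, 66929318 to 66969640, minus strand), had 97.2, 113 and 76.5 TPM in the rGST libraries and 51.4, 54.6 and 40.5 TPM in the rSLURP1 libraries. Its groups did not overlap either, but it varied more between libraries of 1 treatment (log2 fold change -0.95, SE 0.16, adjusted p = 0.00121 in limma). With median-ratio scaling both stayed lower (-0.64 and -0.60, adjusted p = 2.67e-04 and 0.0144). Bnip3l, a mitophagy receptor, and Ak4, a mitochondrial adenylate kinase, fell from 403 ± 22.3 to 296 ± 11.01 TPM and from 49.8 ± 3.80 to 37.8 ± 3.47 TPM (SD, n = 3 each). These decreases (-0.45 and -0.39, adjusted p = 1.73e-04 and 0.00418 in limma) were not called with median-ratio scaling (-0.09 and -0.04, adjusted p = 0.209 and 0.660).

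Bnip3, the paralog of Bnip3l and also a mitophagy receptor, had 191, 222 and 169.9 TPM in the rGST libraries and 213, 204 and 172 TPM in the rSLURP1 libraries. The treatments overlapped and Bnip3 was not called as deposited (0.02, adjusted p = 0.895 in limma), while with median-ratio scaling it was higher (0.37, adjusted p = 0.0256). Ero1l, an oxidase of disulfide formation in the endoplasmic reticulum, had 127, 157 and 131 TPM in the rGST libraries and 124, 140.4 and 119 TPM in the rSLURP1 libraries and was called on neither scale (-0.12 and 0.24, adjusted p = 0.306 and 0.0557 in limma), though it was called higher with the length and GC correction (0.27, adjusted p = 0.0344). Car9, the surface carbonic anhydrase that is a standard hypoxia marker, had 0.77, 1.39 and 0.67 TPM with rGST and 0.20, 0.47 and 0.31 TPM with rSLURP1. The treatments did not overlap for Car9, but its level was too low for testing. Adm, adrenomedullin, had at most 0.24 TPM in any library.

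Other genes of the pathways were taken from lists chosen by function, and their counts stand beside the background of 8.66% higher and 58.5% lower as deposited, and 26.0% and 25.1% with median-ratio scaling. Of the other HIF pathway components, 10 of 13 were tested, and 1 was higher and 9 lower, or 2 and 3 with median-ratio scaling, where both shares lay near the background. Arnt, the partner of HIF-1α, had 125, 130.4 and 126 TPM in the rGST libraries and 52.3, 53.1 and 53.5 TPM in the rSLURP1 libraries, a decrease without overlap (log2 fold change -1.25, SE 0.039, adjusted p = 5.35e-07 in limma; -0.90 with median-ratio scaling, adjusted p = 2.39e-06). Ep300, a coactivator of HIF, fell from 43.1 ± 4.12 to 24.9 ± 0.484 TPM (SD, n = 3 each; -0.76, adjusted p = 8.58e-05 in limma), and Eloc, a subunit of the VHL ligase, rose from 246 ± 14.8 to 286 ± 14.3 TPM (0.21, adjusted p = 0.0115 in limma). Epas1 (HIF-2α) and Hif3a had at most 0.03 TPM and Arnt2 at most 0.17 TPM, and Hif1a was the only HIF-α subunit above that level.

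Of 35 further HIF targets, 31 were tested, of which 6 were higher and 22 lower, or 8 and 14 with median-ratio scaling. Their median log2 fold change was -0.55. Bhlhe40, a transcriptional repressor, had 136, 141 and 117 TPM in the rGST libraries and 18.8, 18.4 and 18.6 TPM in the rSLURP1 libraries (log2 fold change -2.75, SE 0.073, adjusted p = 3.07e-07 in limma). Selenbp1, a selenium-binding protein, fell from 16.4 ± 0.919 to 2.21 ± 1.03 TPM (SD, n = 3 each; -2.49, adjusted p = 5.73e-05 in limma). In the other direction, Angptl4, a secreted lipase inhibitor, rose from 116 ± 16.6 to 296 ± 15.8 TPM (1.35, adjusted p = 1.94e-05 in limma). By at least 2-fold, 4 genes of this list were lower and 4 higher, beside 7.06% and 1.15% of all tested genes. Car12, a carbonic anhydrase and 1 of the 4 lower genes, named here after its values were seen, passed the filter only through the rGST libraries, where it was high.

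Of 20 other glycolysis genes 10 were tested, 2 higher and 6 lower (3 and 3 with median-ratio scaling). The 60.0% that were lower lay near the 58.5% of all tested genes. Eno2, the neuronal enolase, fell from 155 ± 10.7 to 68.5 ± 11.4 TPM and Eno3, the muscle enolase, rose from 21.7 ± 1.78 to 30.3 ± 1.80 TPM (SD, n = 3 each; -1.18 and 0.46, adjusted p = 7.76e-05 and 0.00131 in limma). Pfkfb2, another enzyme that makes fructose 2,6-bisphosphate, fell from 7.40 ± 0.650 to 3.33 ± 0.707 TPM (-0.96, adjusted p = 6.16e-04 in limma). Slc16a1, the lactate transporter MCT1, had a log2 fold change of 0.17 (adjusted p = 0.0331 in limma), which was 0.0561 to 0.0858 without each of rGST libraries 1, 2 and 3 and rSLURP1 libraries 1 and 2. Among 11 of 12 genes from pyruvate to acetyl-CoA, 2 were higher and 8 lower, or 5 and 1 with median-ratio scaling. Mpc2, a subunit of the mitochondrial pyruvate carrier, rose from 78.1 ± 2.71 to 123 ± 8.40 TPM (0.64, adjusted p = 6.31e-05 in limma). Pdk2, a second pyruvate dehydrogenase kinase, fell from 15.8 ± 1.17 to 6.64 ± 1.17 TPM (-1.14, adjusted p = 1.24e-04 in limma). Dld, the dihydrolipoamide dehydrogenase subunit, was higher (0.17, adjusted p = 0.0167 in limma, or 0.0541 without rGST library 3) and Pdp2, a pyruvate dehydrogenase phosphatase, lower (-0.53, adjusted p = 0.00344 in limma), and Pdp2 was not called with median-ratio scaling (-0.23, adjusted p = 0.106). Of 7 pentose phosphate genes 1 was higher and 3 lower (4 and 0 with median-ratio scaling). Taldo1, transaldolase, rose from 61.9 ± 1.60 to 101 ± 3.12 TPM (0.70, adjusted p = 1.13e-05 in limma). Tkt, transketolase, and Rpia, which interconverts ribose phosphates, were lower as deposited (-0.32 and -0.45, adjusted p = 6.52e-04 and 0.0111 in limma) but not with median-ratio scaling, where Tkt had 0.03 and Rpia -0.11 (adjusted p = 0.544 and 0.463).

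**Figure D5:**
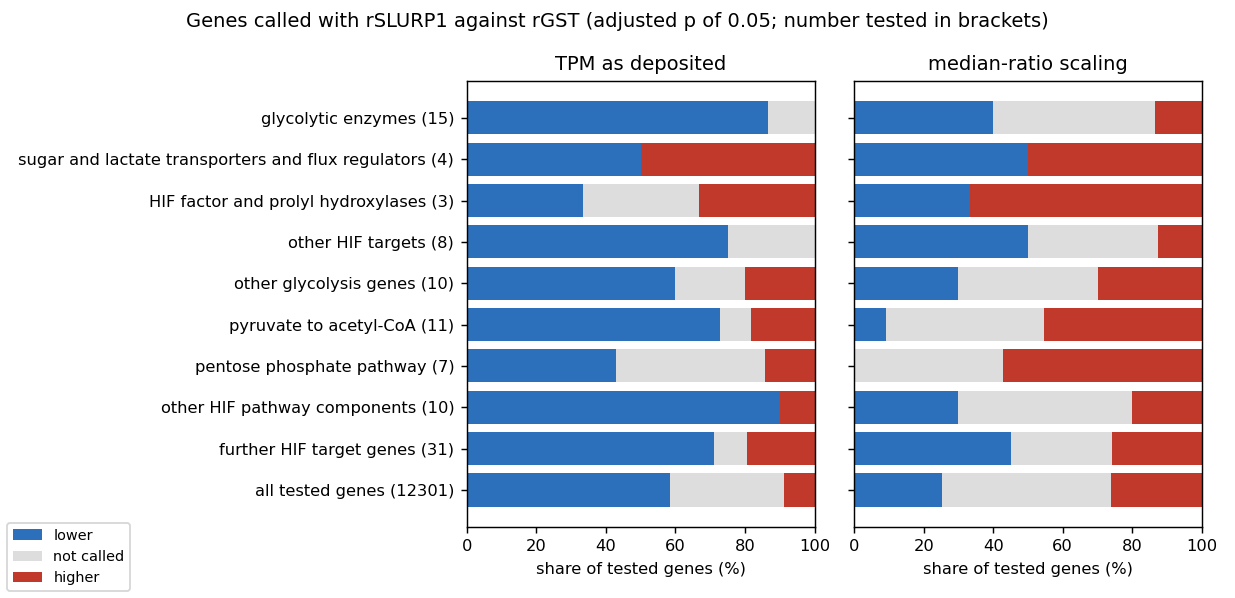
Share in percent of tested genes called lower (blue), higher (red) or not called (grey) in each list, with TPM as deposited at left and median-ratio scaling at right; brackets give the number tested. Of the 15 glycolytic enzymes 13 are lower at left and 6 at right, and of all 12301 tested genes 58.5% are lower at left and 25.1% at right.

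Several members share sequence with other genes, between which RSEM divides reads. By 31-base words, 60 genes or pseudogenes held at least 50% of their words in common with 1 of 12 members. Eno1 was the most affected: the copies Eno1b and Gm4735 held 295 ± 15.8 and 417 ± 9.12 TPM with rGST and 248 ± 10.0 and 356 ± 15.2 TPM with rSLURP1 (SD, n = 3 each), 42.9% and 44.2% of the enolase sum. Its decrease was 1.24-fold alone and 1.22-fold with its copies. The 43 copies of Gapdh held 21.4% and 21.3% of the sum, and its decrease was 1.21-fold with or without them. A processed pseudogene of Pgk1, Pgk1-rs7, had 14.9 TPM in rGST library 3 and at most 0.17 in the other 5, while both Pgk1 copies together held 24.5 to 30.8 TPM in the rGST libraries. For the other members copies held at most 1.52% of the sum. Levels of Eno1 and Gapdh are therefore uncertain by the share in copies.

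Libraries of 1 treatment also differed in these genes. Among the 30 tested genes, rGST library 2 was the highest rGST library for 27 (90.0%), against 33.3% of all tested genes. Library 3 was the lowest rGST library for 24 and the lowest rSLURP1 library for 22, beside 4409 and 4516 of all 12301 tested genes. Library 2 was also the highest rSLURP1 library for 24 of 30 (80.0%), against 50.3% of all tested genes. The median log2 TPM of the 30 genes in library 2 was above that of the other libraries by 0.14 with rGST and by 0.105 with rSLURP1, beside 0.002 and 0.057 over all tested genes. The genes thus varied together between libraries of 1 treatment and are not independent of one another. What differed between these libraries was not tested, and every called member other than Slc16a3 kept its call when rGST library 2 or rSLURP1 library 2 was left out.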

How the data were processed

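The 6 libraries of D2A1 spheroids, 3 of rGST and 3 of rSLURP1, were grouped by their labels. The library kit is TruSeq mRNA per the labels and Smart-seq2 per the paper's methods, a difference that was not resolved here. The submitters' processing notes list cutadapt 1.18, STAR 2.5.2b and RSEM 1.3.3 with mm10. The authors deposited TPM per gene and library without pooling, and reads were not used here, so depth is unknown.

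From these, log2(TPM + 1) of the 12301 genes that reached 1 TPM in 3 or more libraries was tested with limma 3.58.1 in R 4.3.3 (lmFit, eBayes with trend, Benjamini-Hochberg), after a check on simulated data. Single sums and shares were compared by two-sided exact permutation over libraries (scipy 1.17.1). Members and lists were chosen with earlier results of these data known. All members are named, and from each other pathway list the 2 largest increases and 2 largest decreases among called genes without overlap, with 1 gene fewer where the list held fewer. Further genes are named where a count needs them. Not every gene that this rule gives is reported here. Coordinates, transcript lengths and copies came from GENCODE M21 (GRCm38), to which 54079 of 54146 identifiers matched without version, and promoters from RefSeq GRCm38.p6, where Ero1l was matched as Ero1a. Alternatives were median-ratio scaling, quantile normalization, eBayes without trend, 0.1 as the pseudocount, the filter required in all 6 libraries or left out, the replicate block, a loess correction for length and GC content (span 0.3), and each library left out. Copies sharing 31-base words were searched for after the data were seen.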

Additional observations from a re-analysis of the deposited data

How the results depend on the processing

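In the order median-ratio scaling, quantile normalization, correction for length and GC content, and the same correction plus the replicate block, 3199, 3111, 3320 and 3095 of all tested genes were higher and 3093, 2905, 2690 and 2468 lower. Glycolytic enzymes called higher numbered 2, 1, 3 and 3 in the same order, and those called lower 6, 11, 6 and 6, with Aldoa in place of Pfkm under the correction as against median-ratio scaling. Other members called higher numbered 5 with median-ratio scaling, 5 with the correction and 6 with the correction and block. The median log2 fold change of the enzymes was -0.088, -0.49, -0.098 and -0.098. For transporters and regulators it was 0.061, 0.092, 0.23 and 0.23 in the order above, and -0.85 with the filter in all 6 libraries, which drops Slc16a3. For Hif1a and the hydroxylases it was 0.42, 0.49, 0.46 and 0.46, and between 0.0054 and 0.23 with 1 library left out. For other HIF targets it was -0.35, -0.48, -0.30 and -0.30.

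Some log2 fold changes of single genes changed sign. Median-ratio scaling gave 0.30 for Hk2, 0.084 for Gapdh, 0.038 for Eno1, 0.13 for Ldha, 0.042 for Ldhb, 0.24 for Ero1l and 0.032 for Tkt. Quantile normalization gave 0.26 for Hk2 and 0.10 for Ero1l. Correcting for length and GC content, both alone and together with the block, gave 0.098 for Hk1, 0.43 for Hk2, 0.13 for Gapdh, 0.076 for Ldha, 0.27 for Ero1l, 0.046 for Ak4 and 0.084 for Tkt. With 1 library left out, Hk2 ranged from -0.16 to 0.11, Bnip3 from -0.073 to 0.12, and the difference in the Slc2a3 share from -0.040 to 0.056 percentage points. Of these, Hk2, Gapdh and Ero1l were called higher with the correction and Ldha with median-ratio scaling. The cause of these changes was not tested beyond the scaling itself, which moves the median of all genes.

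Same-numbered libraries had correlations of -0.061 to -0.034 in their deviations from the group means over all tested genes. The labels do not say whether the numbers pair libraries, and a low correlation over all genes cannot decide it. Among the 30 tested members, library 2 was the highest for 27 with rGST and for 24 with rSLURP1. With the replicate block 1008 genes were higher and 6954 lower, 13 enzymes and 9 other members stayed lower, and of the named genes Slc16a3 alone lost its call (adjusted p = 0.0587 in limma). The remaining alternatives were a pseudocount of 0.1, no filter, the filter in all 6 libraries and eBayes without trend. They changed no call of a member that stayed in the test. The 3 libraries per treatment and the unknown depth limit what low genes such as Slc16a3 and Car9 can show.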
